A study of Danio rerio with 8 samples.

Results

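The proneural factors described here are 8 basic helix-loop-helix (bHLH) transcription factor genes of the zebrafish hindbrain: atoh1a, atoh1b, atoh1c, olig4, ptf1a, ascl1a, ascl1b and neurog1. They were picked by gene ID or zebrafish symbol out of the 32189 gene IDs in the count table, by a rule that uses no measured value. Earlier results of these data were known when they were chosen. Of the 8, 7 had enough counts to be tested. RNA was measured in 8 libraries, each from a single dissected hindbrain with the tissue around it, from embryos at 24 to 25 hours post-fertilisation (hpf). Of these, 4 embryos carried Tg(hsp70:ca-fgfr1), a transgene in which a heat-shock promoter drives a constitutively active Fgf receptor 1 (the ca_fgfr1 group), and 4 were wild-type siblings without it (the control group). Carriers were heterozygotes from outcrosses. Both groups were raised at 28.5°C, received the same heat shock of 30 min at 38.5°C at 22 hpf, and were dissected after 2 h of recovery, so heat shock is shared by all libraries. Carriers and siblings shared a clutch and a heat shock, and qPCR on each RNA sample separated them. A heat-shock promoter acts in all heated tissues, and the dissections held more than hindbrain, so neither the site of receptor activation nor the source of a transcript is restricted to one cell type.

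Proneural bHLH factors bind DNA as dimers with E-proteins and drive progenitors of the neural tube to leave the cell cycle and become neurons. Different factors occupy different positions along the dorsoventral axis, and this position is tied to the kind of neuron made. In the hindbrain, atoh1 genes mark the rhombic lip at the dorsal edge, ptf1a and ascl1a lie more ventrally in the alar plate, and neurog1 marks a more ventral territory. Proneural factors also switch on Delta ligands, which activate Notch in neighbouring cells. Notch in turn induces Hairy/E(spl) repressors that hold proneural genes down, and Id proteins block the same step by binding E-proteins. Fgf signalling in each hindbrain segment is known to restrict neurogenesis, and the comparison asked whether activating the receptor for a short time altered the transcripts of these factors.

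Libraries held 13173019 to 20541155 counts. Control replicate 1 stood apart: it had the fewest counts, the fewest genes with a count (21708, against up to 23702) and the lowest scaling factor (0.811, against up to 1.15), so results for the factors and medians of the related gene lists that turned on it are also given without it. ca_fgfr1 replicate 2 was apart from its group in the mean log2 CPM of hindbrain identity genes (5.34, others 5.61 to 5.65). Estimates for atoh1b and olig4 and some list medians are also given without both it and control replicate 1. The 6 hindbrain markers egr2b, mafba, hoxa2b, hoxb1a, hoxb2a and hoxb3a had counts in every library. Their summed level lay between 357 and 474 CPM (counts relative to the TMM-scaled library total) in ca_fgfr1 hindbrains and between 389 and 599 CPM in control hindbrains. Midbrain markers otx2b and otx1 summed to at most 24.6 CPM in any ca_fgfr1 library and 14.9 CPM in any control library. The 2 IDs under the symbol EN2, of the midbrain-hindbrain boundary, were not alike between groups. ENSDARG00000038868 had 3.05 to 11.2 CPM in ca_fgfr1 and 0.718 to 2.62 CPM in control hindbrains (log2 fold change 2.57; edgeR F-test, adjusted p = 0.284). ENSDARG00000026599, too low to be tested, had 0.382 to 0.588 CPM in ca_fgfr1 and 0 to 0.195 CPM in control hindbrains. Epidermal genes were abundant everywhere, with a summed level of 7242 to 14080 CPM in ca_fgfr1 libraries and 9138 to 25191 CPM in control libraries, the highest being control replicate 1. Since each library is bulk RNA, fewer cells of a type and less RNA per cell cannot be told apart in any value below.

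No difference between ca_fgfr1 and control hindbrains was called for any of the 7 tested factors, and for all 7 the libraries of the groups overlapped. The log2 fold changes (ca_fgfr1 over control) lay between -0.10 and 0.22, with a median of 0.03 beside -0.04 over all 18075 genes tested. Of the 7, 6 had a positive estimate, against 45.9% of all genes. That count was not stable: it was 2 without ca_fgfr1 replicate 1, 7 without ca_fgfr1 replicate 3, and 3 with at least 5 CPM required in at least 4 libraries. No factor passed an adjusted p of 0.05 in edgeR's quasi-likelihood F-test, the smallest adjusted p being 0.923, for olig4. This rule called 9 genes in the whole table (0.0498%), and the stricter criteria of the study's methods, an adjusted p of 0.01, a 2-fold change and a normalised count over 30, called 3 (0.0166%) when applied to the edgeR fit. With DESeq2, the tool the study used, they called 44, none of them a proneural factor. No factor had an unadjusted p under 0.05, a level reached by 966 genes (5.34%), and none was among the 604 genes (3.34%) with no overlap between the libraries of the groups. Beside backgrounds this low a count of 0 of 7 is no result about the factors, and the intervals given for each of them say more.

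**Figure D1:**
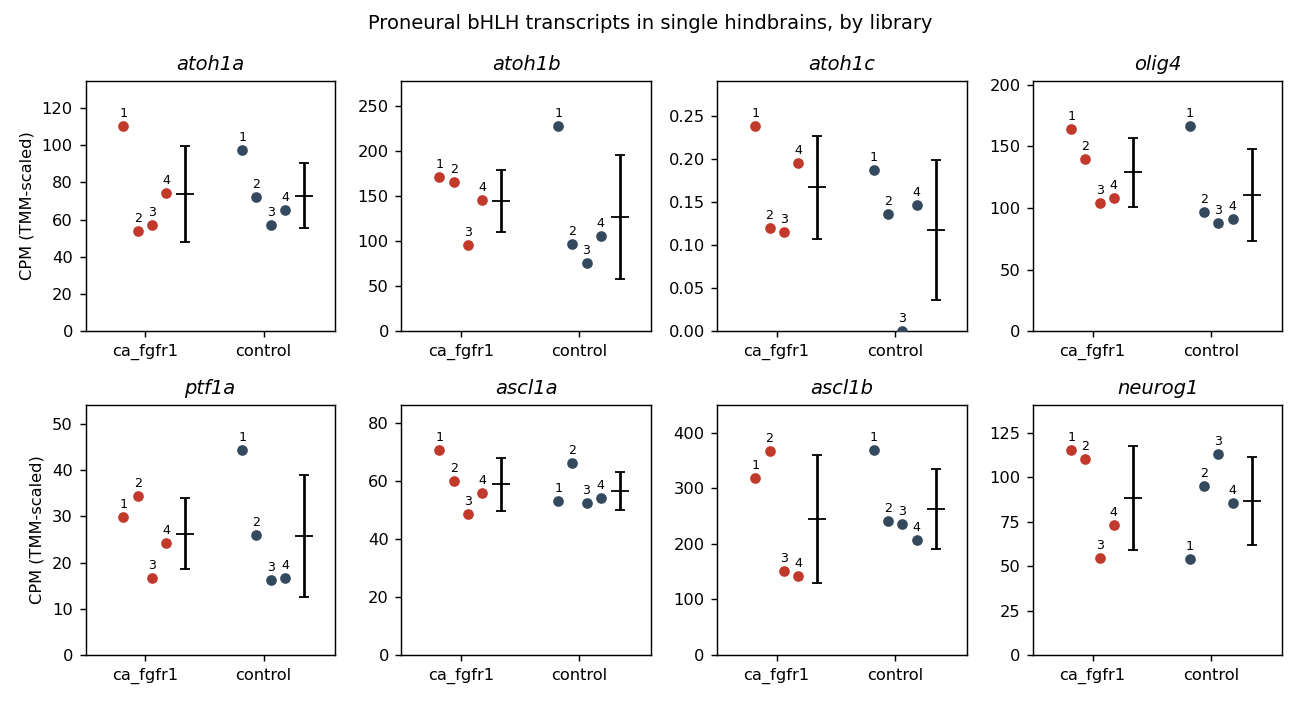
TMM-scaled CPM of the 8 proneural bHLH genes in each library, with ca_fgfr1 left and control right in each panel; points are single hindbrains labelled by replicate, and the bar beside them is the mean with 1 SD (n = 4 each). The points of the groups overlap in every panel, and control replicate 1 is the highest point for atoh1b, olig4, ptf1a and ascl1b and the lowest for neurog1.

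Among the dorsal factors, atoh1a (ENSDARG00000055294), required for rhombic lip derivatives such as cerebellar granule neurons and also for hair cells of the inner ear, had 110, 54.0, 56.9 and 74.2 CPM in ca_fgfr1 replicates 1 to 4, against 97.4, 72.1, 57.0 and 65.1 CPM in control replicates 1 to 4. The first replicate was the highest of its group on both sides, and the means were nearly equal, at 73.8 ± 25.9 CPM in ca_fgfr1 and 72.9 ± 17.5 CPM in control hindbrains (SD, n = 4 each). The log2 fold change was 0.02 ± 0.28 (SE; 95% interval -0.60 to 0.64; edgeR adjusted p = 0.995).

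Its paralogue atoh1b (ENSDARG00000099564), expressed in the same dorsal territory and in the early ear, was more variable. It had 171, 165, 95.5 and 145 CPM in ca_fgfr1 replicates 1 to 4, against 227, 96.9, 75.2 and 106 CPM in control replicates 1 to 4. Control replicate 1 exceeded every other library, whereas the other 3 controls were below 3 of the 4 ca_fgfr1 libraries, with ca_fgfr1 replicate 3 lying among them. Means were 144 ± 34.2 CPM in ca_fgfr1 and 126 ± 68.5 CPM in control hindbrains, and the log2 fold change was 0.19 ± 0.35 (95% interval -0.57 to 0.95; edgeR adjusted p = 0.956). The third member of the family, atoh1c (ENSDARG00000039602), which contributes to cerebellar granule neuron formation in zebrafish, was barely present. It had 5, 2, 2 and 3 counts in ca_fgfr1 replicates 1 to 4, against 2, 2, 0 and 3 counts in control replicates 1 to 4, and was not detectable well enough at this depth for a fold or a test.

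olig4 (ENSDARG00000052610), an Olig-family bHLH gene of dorsal progenitors, had 164, 139, 104 and 108 CPM in ca_fgfr1 replicates 1 to 4, against 166, 96.8, 87.6 and 91.3 CPM in control replicates 1 to 4. All 4 ca_fgfr1 libraries were above control replicates 2 to 4, and control replicate 1 alone made the groups overlap. The log2 fold change was 0.22 ± 0.27 (95% interval -0.37 to 0.81; edgeR adjusted p = 0.923), with means of 129 ± 27.97 CPM in ca_fgfr1 and 111 ± 37.4 CPM in control hindbrains. It was the largest estimate among the 7 factors and less than its own standard error from 0.

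In the medial territory, ptf1a (ENSDARG00000014479), a selector of inhibitory over excitatory neurons in hindbrain and cerebellum, had 29.8, 34.3, 16.6 and 24.3 CPM in ca_fgfr1 replicates 1 to 4. Control replicates 1 to 4 had 44.4, 26.0, 16.3 and 16.6 CPM. The control libraries spanned 2.73-fold and the ca_fgfr1 libraries 2.07-fold, both far more than the difference between the means of 26.3 ± 7.63 CPM in ca_fgfr1 and 25.8 ± 13.2 CPM in control hindbrains. The log2 fold change was 0.03 ± 0.36 (95% interval -0.77 to 0.82; edgeR adjusted p = 0.995).

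ascl1a (ENSDARG00000038386), a zebrafish homologue of the Achaete-scute proneural genes, was the steadiest of the factors. It had 70.8, 60.1, 48.6 and 55.7 CPM in ca_fgfr1 replicates 1 to 4, against 53.1, 66.4, 52.6 and 54.2 CPM in control replicates 1 to 4. Its coefficient of variation was 15.8% in ca_fgfr1 and 11.6% in control hindbrains, the lowest of the 7 in each group. The log2 fold change was 0.06 ± 0.21 (95% interval -0.40 to 0.52; edgeR adjusted p = 0.979).

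The second Achaete-scute homologue, ascl1b (ENSDARG00000101628), had the widest spread within ca_fgfr1 hindbrains. It had 318, 367, 152 and 142 CPM in ca_fgfr1 replicates 1 to 4, which formed a high and a low pair, against 369, 242, 235 and 207 CPM in control replicates 1 to 4. Both libraries of the low pair were below all controls, while the high pair lay below control replicate 1 and above the other controls. Its log2 fold change of -0.10 ± 0.34 (95% interval -0.86 to 0.65; edgeR adjusted p = 0.9754) was the only negative estimate, with means of 245 ± 115 CPM in ca_fgfr1 and 263 ± 72.2 CPM in control hindbrains.

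neurog1 (ENSDARG00000056130), the Neurogenin that initiates neurogenesis in ventral hindbrain and in cranial sensory ganglia, had 116, 111, 54.4 and 73.1 CPM in ca_fgfr1 replicates 1 to 4. Control replicates 1 to 4 had 54.0, 95.02, 113 and 85.7 CPM, so each group spanned about the same range. Means were 88.4 ± 29.6 CPM in ca_fgfr1 and 87.0 ± 24.8 CPM in control hindbrains, and the log2 fold change was 0.02 ± 0.30 (95% interval -0.65 to 0.69; edgeR adjusted p = 0.995). In a newer assembly annotation (GRCz12tu) neurog1 overlaps polr2g, which encodes an RNA polymerase subunit. polr2g had 212 to 263 CPM in ca_fgfr1 and 151 to 419 CPM in control hindbrains and was highest in control replicate 1, where neurog1 was lowest. Because strand use in counting was not stated, reads of this overlap cannot be told apart; atoh1a and olig4 each overlap an uncharacterised long non-coding RNA in the same annotation, and the other 5 factors overlap no annotated gene there.

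The 95% intervals of all 7 tested factors lay inside a 2-fold change in either direction, from 0.553-fold for the lower bound of ascl1b to 1.94-fold for the upper bound of atoh1b. Changes smaller than these bounds could not be resolved with 4 single hindbrains a group. When control replicate 1 was left out, 5 of the 7 intervals stayed inside 2-fold, and the same number did without ca_fgfr1 replicate 2 or without ca_fgfr1 replicate 3.

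**Figure D2:**
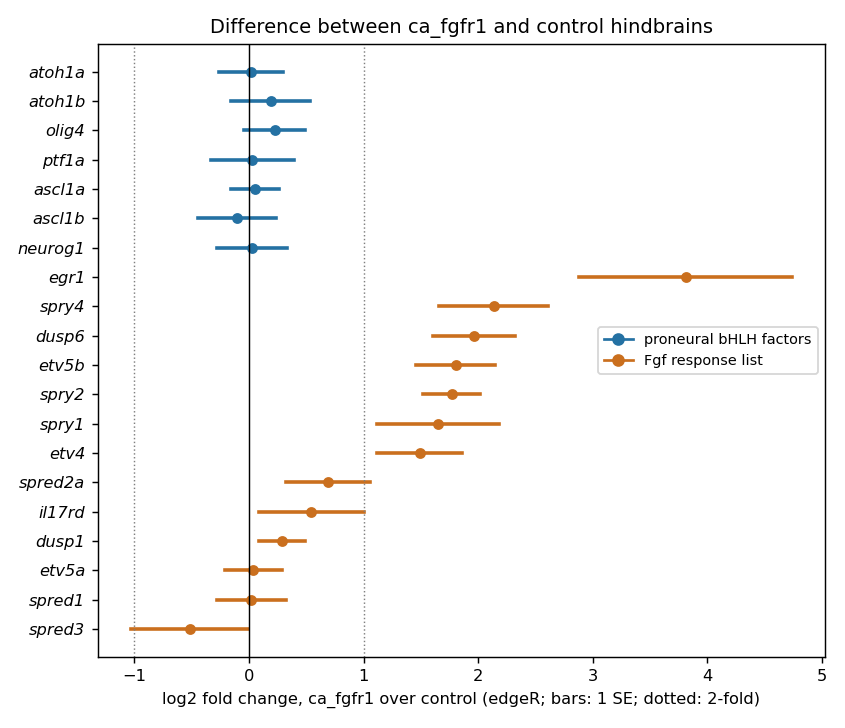
Log2 fold change (ca_fgfr1 over control, edgeR) of the 7 tested proneural bHLH factors and of 13 genes of the Fgf response list; points are estimates, bars are 1 SE and dotted lines mark a 2-fold change. The proneural factors lie between -0.10 and 0.22, while the Fgf response list has a median of 1.49.

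Genes of Fgf signalling output and feedback had larger estimates in the same libraries. Of 13 tested, 12 had positive estimates in ca_fgfr1 over control hindbrains, with a median log2 fold change of 1.49. In this list 1 gene passed the test: spry2, a Sprouty feedback inhibitor of receptor signalling, with 160 to 285 CPM in ca_fgfr1 and 50.3 to 69.9 CPM in control hindbrains (log2 fold change 1.77 ± 0.25; edgeR adjusted p = 0.0408). This call was lost with library totals, with a replicate block and when any single library other than control replicate 1 was left out, whereas DESeq2 called 6 genes of the lists. The libraries of 7 of the 13 did not overlap between groups, among them dusp6, an ERK phosphatase, with 133 to 479 CPM in ca_fgfr1 and 60.3 to 68.5 CPM in control hindbrains (edgeR adjusted p = 0.190). etv5b, an ETS factor downstream of Fgf, had 233 to 384 CPM in ca_fgfr1 and 35.7 to 119 CPM in control hindbrains (edgeR adjusted p = 0.253). Genes of this list were reported by the study as induced in these libraries, so the list serves as a check of the labels and not independent evidence of its direction. The ca_fgfr1 libraries with the highest dusp6, replicates 3 and 4, were also the lowest of their group for ascl1b. The same held for atoh1b, olig4, ptf1a, ascl1a and neurog1, but not for atoh1a. Of the 7 Fgf genes without overlap, etv4, spry1, spry2, spry4 and egr1 also had replicates 3 and 4 as their highest ca_fgfr1 libraries. etv5b did not, with 334, 233, 384 and 287 CPM in ca_fgfr1 replicates 1 to 4. In the rest of the list dusp1 ran the other way, with 348, 307, 275 and 225 CPM. The match between these Fgf genes and the factors was noticed after the values were seen and was not tested.

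Control replicate 1 carried much of the spread of the dorsal and medial factors. It was the highest of all 8 libraries for 4 of the 7 factors (atoh1b, olig4, ptf1a, ascl1b) and the lowest for neurog1. With the library totals in place of TMM scaling it remained the highest of 8 for atoh1b and ptf1a, remained the highest control for olig4 and ascl1b, and remained the lowest for neurog1. Without this library the log2 fold change of atoh1b was 0.63 ± 0.23 (95% interval 0.11 to 1.15; edgeR adjusted p = 0.148), with the groups still overlapping through ca_fgfr1 replicate 3.

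That of olig4 was 0.48 ± 0.20 without control replicate 1 (95% interval 0.04 to 0.93; edgeR adjusted p = 0.168), and its groups no longer overlapped. Neither passed the test. At an unadjusted p under 0.05, which both met, 26.3% of all genes were also found once this library was removed, and 21.5% of all genes did not overlap, so 2 of 7 and 1 of 7 factors are near or below these shares. The other 5 factors had log2 fold changes between -0.15 (neurog1) and 0.41 (ptf1a) without it, with adjusted p of at least 0.381. The direction of the estimates was positive for both atoh1b and olig4 under all 18 alternatives, whereas atoh1a, ptf1a, ascl1a, ascl1b and neurog1 each changed sign under at least 1 of them. The lowest estimate for atoh1b was 0.00521, without control replicate 3, and that for olig4 was 0.0898, without ca_fgfr1 replicate 1.

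To compare positions along the dorsoventral axis without any scaling of libraries, the counts of each dorsal or medial factor were divided by those of neurog1 within each library. A ratio between genes also reflects transcript length, so only its variation among libraries is described. The log2 ratio of atoh1b to neurog1 was 0.56, 0.58, 0.81 and 0.99 in ca_fgfr1 replicates 1 to 4, against 2.07, 0.03, -0.59 and 0.31 in control replicates 1 to 4. The ca_fgfr1 libraries thus lay within a narrow band that control replicate 1 exceeded and the other controls did not reach. Among single genes, 21.5% did not overlap between groups once control replicate 1 was removed.

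The log2 ratio of olig4 to neurog1 had the same arrangement, with 0.33 to 0.94 in ca_fgfr1 hindbrains, against 1.62 in control replicate 1 and -0.37 to 0.09 in the other controls. For ptf1a the log2 ratio was -1.73 ± 0.16 in ca_fgfr1 and -1.83 ± 1.099 in control hindbrains (SD, n = 4 each). The log2 ratio of atoh1a was -0.25 ± 0.52 in ca_fgfr1 and -0.23 ± 0.77 in control hindbrains. Groups overlapped for all these ratios, and control replicate 1 had the highest ratio to neurog1 for each of the 6 factors.

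**Figure D3:**
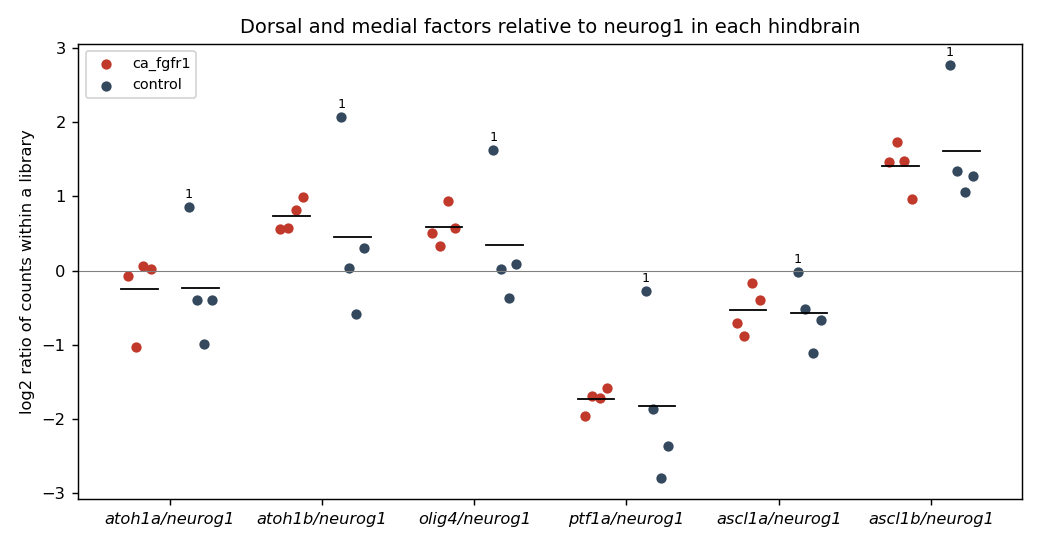
Log2 ratio of the counts of each dorsal or medial factor to those of neurog1 within a library (prior count 0.5), ca_fgfr1 left and control right for each factor; points are libraries, lines are group means, and 1 marks control replicate 1. The group means differ by at most 0.28, for atoh1b, and control replicate 1 is the highest point of all 8 for each factor.

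Within gene families the ratios also overlapped. The log2 ratio of atoh1b to atoh1a was 0.99 ± 0.44 in ca_fgfr1 and 0.69 ± 0.38 in control hindbrains, and that of ascl1b to ascl1a was 1.94 ± 0.56 in ca_fgfr1 and 2.19 ± 0.42 in control hindbrains (SD, n = 4 each). The highest ratio of atoh1b to atoh1a, 1.61, came from ca_fgfr1 replicate 2, the library in which atoh1a was lowest and atoh1b second highest of its group. The counting program divides reads that match several genes, so the split between close paralogues is uncertain.

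Single hindbrains differed from each other in several factors at once. In ca_fgfr1 replicate 1 all 7 factors were above their group mean and in replicate 2 it was 6 of 7, while replicate 3 had 0 of 7 above it, with a median deviation of -0.56 on the log2 scale. atoh1b, olig4, ascl1a and neurog1 ranked the ca_fgfr1 libraries in the same order (1, 2, 4, 3, high to low). In control hindbrains neurog1 ran the other way: its order was 3, 2, 4, 1, that of atoh1a, olig4 and ptf1a was 1, 2, 4, 3, and that of atoh1b was 1, 4, 2, 3, the exact reverse of neurog1.

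Across the 8 libraries, atoh1b and olig4 had the highest Pearson correlation of the 21 pairs of factors. Their log2 CPM correlated with Pearson's r = 0.920 (exact permutation p = 0.000471, adjusted over 21 pairs 0.00990) and Spearman's rho = 0.905 (exact permutation p = 0.00456, adjusted 0.0479). Without the 2 libraries farthest from the median of atoh1b, r was 0.863, without control replicate 1 it was 0.881, and with library totals in place of TMM it was 0.854. Both genes belong to dorsal progenitors, but so does atoh1a. Its r was 0.643 with atoh1b and 0.669 with olig4 (exact permutation, adjusted p = 0.243 for each). Whether position bears on these correlations was not tested. The permutation sets each pair against shuffled libraries and not against other pairs of genes. How often pairs of other genes reach such an r in these libraries was not computed. Genes outside the factors had higher r, up to 0.978 with atoh1b (icam3) and 0.982 with olig4 (VAMP7).

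For atoh1b and ptf1a, r was 0.892 (exact permutation p = 0.00429, adjusted 0.0451) and rho was 0.857 (exact permutation p = 0.0107, adjusted 0.0750), with r = 0.765 without the 2 farthest libraries and r = 0.830 with library totals. For olig4 and ptf1a, r was 0.862 (exact permutation p = 0.00920, adjusted 0.0644) and rho was 0.905 (exact permutation p = 0.00456, adjusted 0.0479), with r = 0.808 without the 2 farthest libraries and r = 0.741 with library totals. Each group alone holds too few libraries for a correlation of its own. Of the 21 pairs 17 had a positive r. The 4 negative values all paired neurog1 with a factor of the dorsal or ptf1a territory (atoh1a, atoh1b, olig4, ptf1a) and were small, from -0.22 to -0.07. Their sign rested on control replicate 1: without it the same 4 pairs had positive r, from 0.223 (atoh1b) to 0.472 (ptf1a). With library totals the r of neurog1 with atoh1a was 0.116 and its r with ascl1a was 0.844, against 0.651 with TMM scaling. All factors of a library share its dissection, depth and scaling.

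**Figure D4:**
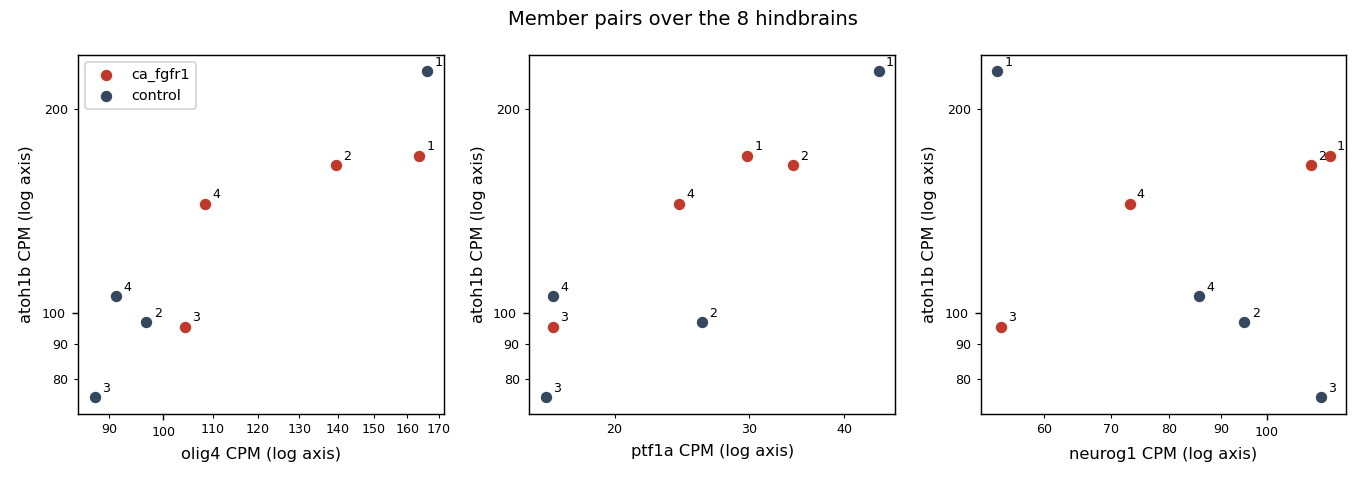
CPM of atoh1b (log axis) against CPM of olig4, ptf1a and neurog1 (log axes) in the 8 libraries, coloured by group and labelled by replicate. atoh1b follows olig4 (r = 0.920) and ptf1a (r = 0.892) over both groups, while its r with neurog1 is -0.219 with control replicate 1 and 0.223 without it.

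The genes whose log2 CPM followed each factor most closely over the 8 libraries were searched among 9690 genes averaging at least 10 CPM and are given as a description. For olig4 they were VAMP7 (r = 0.982), nhlh2 (r = 0.978) and PEX13 (r = 0.972), and nhlh2, itself a bHLH factor of newborn neurons, was the only one of these from the neurogenesis lists. For atoh1b they were icam3, HIBCH and DENND6B (r = 0.971 to 0.978), and for ptf1a zgc:174703, PRC1 and NGLY1 (r = 0.983 to 0.990). For atoh1a they were SNUPN, TXNDC5 and WNT10B (r = 0.939 to 0.941), and for neurog1 oxsr1b, MAP2K5 and TMTC2 (r = 0.927 to 0.967). ascl1b was followed by TXNDC16, iqce and RASL11B (r = 0.947 to 0.959) and ascl1a, least closely, by KBTBD8, INO80B and DIS3L2 (r = 0.859 to 0.916). Each is the highest of 9690 values, so no test is attached to it. Names in capitals are those of the symbol table and do not separate zebrafish paralogues.

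The E-proteins, the dimer partners of all proneural factors, showed no called change. All 3 tested genes had negative estimates, with a median log2 fold change of -0.29, and -0.50 without control replicate 1. The median was -0.33 without both control replicate 1 and ca_fgfr1 replicate 2, each the lowest of its group for the summed E-proteins. A further E-protein gene, tcf4, matched no ID and was not examined. tcf3a had 23.8 to 41.2 CPM in ca_fgfr1 and 33.5 to 63.4 CPM in control hindbrains (log2 fold change -0.54 ± 0.28; edgeR adjusted p = 0.866), and tcf12 and tcf3b had log2 fold changes of -0.29 ± 0.32 and -0.15 ± 0.33 (edgeR adjusted p = 0.910 and 0.966). Their summed level was 340, 177, 260 and 216 CPM in ca_fgfr1 replicates 1 to 4, against 176, 266, 412 and 345 CPM in control replicates 1 to 4. Control replicate 1 was the lowest of all 8 libraries.

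The Id inhibitors, which sequester E-proteins, had the reverse arrangement among controls. Their summed level was 1295, 1736, 1344 and 1354 CPM in ca_fgfr1 replicates 1 to 4, against 2571, 1176, 786 and 772 CPM in control replicates 1 to 4. All 4 ca_fgfr1 libraries were above control replicates 2 to 4 and below control replicate 1, as for atoh1b relative to neurog1. Most of the sum was id1, with 1096 to 1487 CPM in ca_fgfr1 hindbrains. It had 2146 CPM in control replicate 1 and 626 to 977 CPM in the other controls. The genes id2a and id4 had the same arrangement as id1, while id3 and id2b did not. Among single tested genes, 21.5% did not overlap once control replicate 1 was removed. No such share was computed for sums over a list. Of 5 tested Id genes 4 had positive estimates and none was called; id3 had 45.0 to 54.4 CPM in ca_fgfr1 and 47.3 to 151 CPM in control hindbrains (log2 fold change -0.72 ± 0.35; edgeR adjusted p = 0.866). id2b went the other way, with 6.11 to 15.9 CPM in ca_fgfr1 and 3.23 to 8.71 CPM in control hindbrains (0.75 ± 0.38; edgeR adjusted p = 0.866), and the estimate for id2a was 0.35 ± 0.36 on the log2 scale (edgeR adjusted p = 0.906). The median log2 fold change of the list was 0.13, and 0.74 without control replicate 1. It was 0.65 without both control replicate 1 and ca_fgfr1 replicate 2.

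Notch ligands and Hairy/E(spl) repressors, the lateral inhibition loop around proneural genes, gave no called gene either. Of 7 tested ligands 3 had positive and 4 negative estimates, with a median log2 fold change of -0.07, and -0.29 without control replicate 1. It was -0.14 without both control replicate 1 and ca_fgfr1 replicate 2. dlc, a Delta ligand, had 19.1 to 25.1 CPM in ca_fgfr1 and 13.1 to 19.2 CPM in control hindbrains (0.51 ± 0.23; edgeR adjusted p = 0.866). The ligands dll4 and jag1a had negative estimates of larger size, -0.75 ± 0.37 and -0.96 ± 0.49 (edgeR adjusted p = 0.866 for each). Of 10 tested repressors 4 had positive and 6 negative estimates, with a median of -0.12, which turned to 0.23 without control replicate 1. hey1, a Notch target, had 20.5 to 35.6 CPM in ca_fgfr1 and 8.90 to 21.9 CPM in control hindbrains (0.72 ± 0.32; edgeR adjusted p = 0.866), and her4.2 and her4.4 had log2 fold changes of -0.49 ± 0.30 and -0.47 ± 0.34 (edgeR adjusted p = 0.866 and 0.872). The repressors summed to 1217 to 2235 CPM in ca_fgfr1 hindbrains, against 3341 CPM in control replicate 1 and 1478 to 1785 CPM in the other controls. The 4 her4 genes and the pair of her15 genes in this list are near-identical copies, so their individual values are uncertain.

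**Figure D5:**
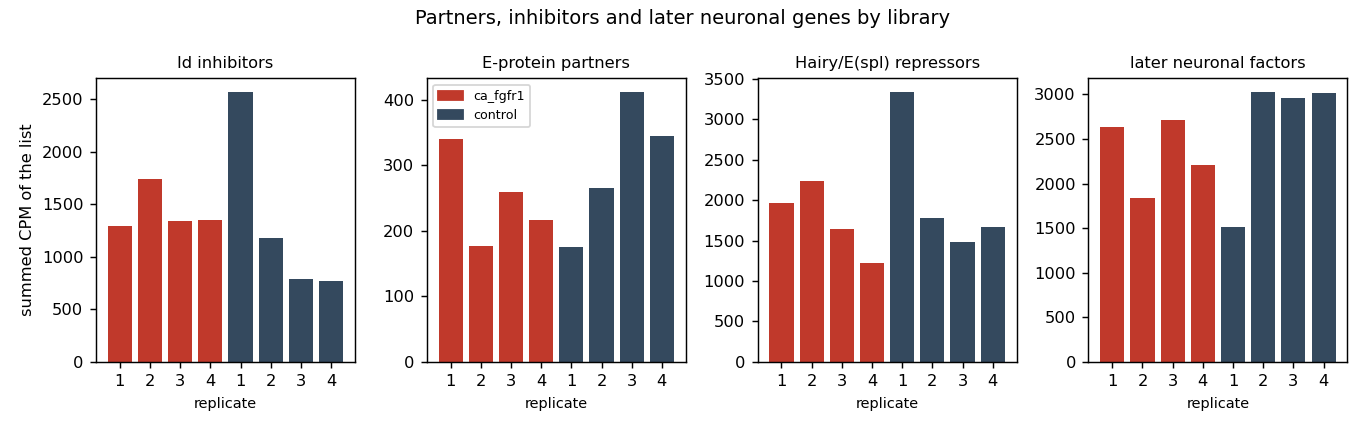
Summed CPM of the Id inhibitors, E-protein partners, Hairy/E(spl) repressors and later neuronal factors in each library, ca_fgfr1 replicates left and control replicates right in each panel; each bar is 1 hindbrain. Control replicate 1 is the highest bar for Id inhibitors (2571 CPM) and repressors (3341 CPM) and the lowest for E-proteins (176 CPM) and later neuronal factors (1517 CPM).

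Genes that act after the proneural factors were followed in the later neuronal list. Of its 11 tested genes 3 had positive and 8 negative estimates, with no called gene and a median log2 fold change of -0.13, and -0.40 without control replicate 1. neurod1 and neurod4, bHLH factors downstream of Neurogenins, had log2 fold changes of -0.66 ± 0.32 and -0.53 ± 0.37 (edgeR adjusted p = 0.866 and 0.870). scrt2, a Scratch-family repressor of differentiating neurons, was the only gene of the list whose groups did not overlap, with 127 to 160 CPM in ca_fgfr1 and 92.8 to 122 CPM in control hindbrains (log2 fold change 0.47 ± 0.20; edgeR adjusted p = 0.866). The list summed to 1842 to 2714 CPM in ca_fgfr1 hindbrains, against 1517 CPM in control replicate 1 and 2961 to 3028 CPM in the other controls, all 3 of which were above every ca_fgfr1 library. With control replicate 1 included the groups overlapped. With it set aside, 21.5% of single tested genes did not overlap. No such share was computed for sums over a list, and the difference in the sums was not tested.

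Other genes of the same dorsoventral territories were examined beside the factors. In the dorsal list 3 of 10 tested genes had positive and 7 negative estimates (median log2 fold change -0.22); zic1, a zinc finger gene of dorsal progenitors, had 91.2 to 174 CPM in ca_fgfr1 and 167 to 189 CPM in control hindbrains (-0.51 ± 0.23; edgeR adjusted p = 0.866), and no gene of the list was called. casz1 and cdon, the next by p, had log2 fold changes of -0.60 ± 0.40 and -0.38 ± 0.30 (edgeR adjusted p = 0.866 and 0.880). In the medial list 2 of 4 had positive estimates and none was called (median -0.21, and -0.33 without control replicate 1), with lbx1b at 0.52 ± 0.25 and the homeobox genes gsx1 and gsx2 at -0.54 ± 0.29 and -0.56 ± 0.30 (edgeR adjusted p = 0.866 for each). Only 2 genes of the ventral list matched a single ID, olig2 (0.33 ± 0.33) and sox21a (0.24 ± 0.39), and neither was called (edgeR adjusted p = 0.906 and 0.944). Over all 10 tested IDs that the ventral list matched, 4 had positive estimates and the median was -0.03. Both IDs under the symbol FOXB1, a forkhead gene, had negative estimates: ENSDARG00000053650 had 2.68 to 9.08 CPM in ca_fgfr1 and 9.27 to 18.1 CPM in control hindbrains, without overlap (-1.32 ± 0.38; edgeR adjusted p = 0.751), and ENSDARG00000089042 had 1.96 to 9.35 CPM in ca_fgfr1 and 8.06 to 24.5 CPM in control hindbrains (-1.48 ± 0.49; edgeR adjusted p = 0.866).

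Neurons that arise from these territories, marked by 17 tested genes, gave 6 positive and 11 negative estimates and no called gene (median log2 fold change -0.22, and -0.44 without control replicate 1). gata3, of ventral inhibitory interneurons, had 13.3 to 41.4 CPM in ca_fgfr1 and 27.7 to 64.8 CPM in control hindbrains (log2 fold change -0.93 ± 0.37), and en1b had 33.9 to 51.7 CPM in ca_fgfr1 and 15.6 to 38.2 CPM in control hindbrains (0.76 ± 0.32; edgeR adjusted p = 0.866 for both). Of the other bHLH genes of proneural type, 4 could be tested and none was called. bhlhe22 had 36.5 to 55.4 CPM in ca_fgfr1 and 25.5 to 45.7 CPM in control hindbrains (0.57 ± 0.26; edgeR adjusted p = 0.866). Over all lists other than the proneural factors, 1 of 124 tested genes was called, the Fgf feedback gene spry2.

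The tissue around the hindbrain also holds cells that use these factors, since atoh1 genes act in the ear and neurog1 in cranial ganglia. The 7 otic genes summed to 1013, 728, 695 and 471 CPM in ca_fgfr1 replicates 1 to 4, against 569, 812, 640 and 556 CPM in control replicates 1 to 4. The highest ca_fgfr1 library for otic genes, replicate 1, was also the highest for atoh1a and was above its group mean for all 7 factors. Control replicate 1 had the most atoh1a of the controls (97.4 CPM). Its otic sum of 569 CPM lay between those of control replicates 4 and 3. Its mean log2 CPM of the otic genes was the lowest of the controls (3.58, others 5.06 to 5.14). That mean weighs scarce genes as much as abundant ones. The scarce gene tecta had 0.187 CPM in control replicate 1 and 4.63 to 7.90 CPM in the other controls. The cranial ganglion list summed to 161 to 193 CPM in ca_fgfr1 and 143 to 224 CPM in control hindbrains, lowest in control replicate 1, which also had the least neurog1. That low sum came mostly from eya1, a gene also used outside ganglia, with 50.5 CPM in control replicate 1 and 107 to 130 CPM in the other controls, while isl1 had 76.6 CPM in control replicate 1 and 66.9 to 80.7 CPM in the other controls. The defining ganglion marker prph was at 10.51 to 20.7 CPM in ca_fgfr1 and 13.9 to 24.5 CPM in control hindbrains. The part of these tissues in the levels of the factors was not tested.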

How the data were processed

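Per the labels and the study's methods, cDNA from single hindbrains was amplified with the SMARTer kit, made into NexteraXT libraries and sequenced as single-end reads. The authors aligned reads to GRCz10 with STAR 2.5.1b, and deposited RSEM 1.2.31 estimated counts rounded to whole numbers, with no scaling. Columns were read as C for control and F for ca_fgfr1; none was left unused. The symbol table named 26350 of 32189 IDs.

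In R 4.3.3, edgeR 4.0.16 (filterByExpr, TMM, glmQLFit, glmQLFTest, Benjamini-Hochberg over 18075 genes, two-sided) compared the groups without covariates. The standard error is the absolute log2 fold change over the square root of F. Log2 CPM used a prior count of 2. Pairs of factors were tested by exact two-sided permutation. The steps were tested on simulated data. Alternatives were other scaling factors and filters, DESeq2 1.42.0, limma-voom (limma 3.58.1), a robust fit, a replicate block and leaving libraries out.

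The factors and 19 gene lists were chosen with earlier results of these data known. List genes matching several IDs were left out of counts. Another 12 list genes matched no ID and were not examined, among them tcf4, dla, her6 and her9. The rule for named genes allowed any list gene, with values for at most the 3 of smallest p per list unless a result turned on another, and the 3 genes most like each factor; genes of the surrounding tissues and both FOXB1 IDs are given beyond it. No pair of libraries in a group agreed within sampling noise (chi-square per degree of freedom at least 23.8). Each library is a separate embryo. Sequences, coordinates and transcript lengths were not used here.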

Additional observations from a re-analysis of the deposited data

Results flagged for a closer look

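In 72 groups of 4 libraries, over levels, ratios and list means, 14 had a library far from the others (by Dixon's gap test; chance gives about 1 group in 20). Values are given without explanation. Among the factors, control replicate 1 had 166.4 CPM of olig4, with the other controls at 87.6 to 96.8 CPM, and control replicate 2 had 66.4 CPM of ascl1a, with the others at 52.6 to 54.2 CPM. The log2 ratio of atoh1a to neurog1 was -1.03 in ca_fgfr1 replicate 2 and -0.07 to 0.06 in the other ca_fgfr1 libraries. The log2 ratio of ascl1b to neurog1 was 2.77 in control replicate 1 and 1.06 to 1.35 in the other controls. That of atoh1c to atoh1a was -11.12 in control replicate 3, which had 0 counts of atoh1c, and -8.73 to -8.57 in the other controls.

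Control replicate 1 was also the lowest of its group in mean log2 CPM for 5 lists: later neuronal factors (6.15, others 7.27 to 7.38), neurons of the domains (2.76, others 3.72 to 3.89), Fgf response (3.98, others 4.90 to 5.02), midbrain (1.35, others 2.57 to 2.79) and otic genes (3.58, others 5.06 to 5.14). The remaining 4 were the ventral list in ca_fgfr1 replicate 4 (4.55, others 5.44 to 5.52), the other bHLH genes in ca_fgfr1 replicate 3 (4.18, others 3.88 to 3.93), hindbrain identity in ca_fgfr1 replicate 2 (5.34, others 5.61 to 5.65) and muscle in control replicate 4 (4.03, others -0.48 to 0.15).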

How the results depend on the processing

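No factor passed an adjusted p of 0.05 under any of 18 alternatives; the lowest was 0.148, for atoh1b without control replicate 1. The log2 fold changes of atoh1b and olig4 kept their direction in all 18, which draw on the same libraries. Leaving out each library in turn gave 0.00521 to 0.630 for atoh1b and 0.0898 to 0.484 for olig4. For the other factors, values near 0 changed sign as follows, with the cause not tested. With at least 5 CPM required in at least 4 libraries, atoh1a was -0.0149, ptf1a -0.00021 and neurog1 -0.0303. atoh1a was -0.0030 with limma-voom and -0.0125 with the replicate block, and neurog1 was -0.0595 with library totals only and -0.27 without both control replicate 1 and ca_fgfr1 replicate 2, where atoh1a was 0.318. Leaving out each library in turn gave -0.24 to 0.19 for atoh1a, -0.14 to 0.41 for ptf1a, -0.0424 to 0.145 for ascl1a, -0.384 to 0.0949 for ascl1b and -0.15 to 0.17 for neurog1. List genes called (1) numbered 0 with library totals, 0 with the replicate block, 6 with DESeq2 and 0 to 2 with a library left out; counting every matching ID, chosen after seeing the data, gave 1. Genes called in the whole table (9) numbered 14 with no filter, 87 with DESeq2, 2 with the replicate block and 1 to 13 with a library left out. By the study's criteria (3) they numbered 1 with relative log expression factors, upper-quartile factors, library totals or a robust fit, 6 with no filter or limma-voom, 5 with the stricter filter, 44 with DESeq2, 0 with the replicate block, 0 without both libraries and 0 to 1 with a library left out. DESeq2 called none of the factors. The replicate numbers are not stated to pair the libraries, and the correlations do not settle it (same-number correlations -0.29, -0.01, 0.22 and 0.19; 2 of 4 libraries correlated best with their own number). The median of all genes stayed within -0.09 to 0.01 in every setting. Depth limits only atoh1c, at 0 to 5 counts.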
